A study of Mus musculus with 6 samples.

Results

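The 29 genes described here encode the enzymes that bring pyruvate into the mitochondrial matrix cycle, turn that cycle, and refill or drain it: the pyruvate dehydrogenase complex with its phosphatases, the tricarboxylic acid (TCA) cycle, pyruvate carboxylase, malic enzymes, glutamate dehydrogenase, the aspartate aminotransferases and ATP citrate lyase. They were taken by symbol from 49652 gene rows, and all 29 were found. Their RNA was measured in 6 bulk RNA-seq libraries of muscle stem cells (satellite cells), sorted from uninjured hindlimb muscle of mice aged 8 to 10 weeks. Cells positive for alpha-7 integrin and VCAM and negative for Sca1, CD45 and CD31 were collected 3 days after tamoxifen had been given by gavage on 5 consecutive days. The labels name 1 genotype design for all animals, OPA1-Pax7-CreERT2, and all received tamoxifen. The WT group was labelled as lacking Cre (Cre negative, n = 3 libraries), and the KO group as carrying it (Cre positive, n = 3 libraries). The form of the Opa1 allele in either group is not given in the labels. Pax7 drives the inducible Cre in satellite cells, so Cre itself is a second difference between the groups beside OPA1. The labels do not give the number of animals in a library, and p-values here measure the spread between these libraries.

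OPA1 is a GTPase of the dynamin family that drives fusion of the inner mitochondrial membrane and keeps the cristae folded. Most enzymes of the cycle lie in the matrix that this membrane encloses. Pyruvate dehydrogenase joins glycolysis to the cycle by making acetyl-CoA. It is switched off when kinases phosphorylate it and switched on again by phosphatases. Each turn of the cycle oxidises acetyl-CoA and loads electrons onto carriers for the respiratory chain, while anaplerotic enzymes replace intermediates that leave for biosynthesis. Quiescent satellite cells are known for a low metabolic rate and a reliance on mitochondrial fuel oxidation, which shifts when they activate.

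Total gene counts ran from 41410136 to 56606886 per library. Opa1 stood at 68.2, 31.4 and 68.8 CPM (read counts scaled to library size) in WT replicates 1, 2 and 3 and at 17.5, 34.4 and 27.1 CPM in KO replicates 1, 2 and 3. The log2 fold change of Opa1, KO minus WT, was -1.09 (SE 0.37, unadjusted p = 0.0215, adjusted p = 0.999976, edgeR). When group labels were permuted, the exact p was 0.2, and 0.1 is the lowest it can be. The second of the WT values fell between KO values, so the groups overlapped. That sample is named below as the library labelled WT replicate 2. Whether its label is right cannot be told from this value, since the form of the Opa1 allele is not given. All 8 muscle stem cell markers were present in every library, with sums of 7410 to 11410 CPM in WT and 6892 to 9228 CPM in KO. Of these 8, 1 stood at an unadjusted p under 0.05 in edgeR, against 2.09% of all genes: Calcr (log2 fold change -0.58, adjusted p = 0.999976). It was lower in all 3 KO libraries, and groups that do not overlap were found for 6.55% of all genes. The groups of the other stem cell markers overlapped, with log2 fold changes from -0.30 (Myf5) to 0.16 (Sdc4). Lists of markers of other cell types summed to less, though the lists differ in length and single genes led some of them. The 6 fibro-adipogenic markers summed to 798 to 1225 CPM in WT and 636 to 847 CPM in KO. Most of each sum was Dpt, at 763 to 1196 CPM in WT and 600 to 792 CPM in KO. In every library Dpt alone stood above Pax7, at 252 to 398 CPM and 325 to 453 CPM. Ly6a, the gene of the sort marker Sca1, made up 4.62 to 13.6 CPM and 4.86 to 19.2 CPM. Pdgfra stood at 0.230 to 2.56 CPM and 0.0241 to 2.55 CPM. The highest value of any marker of that list other than Dpt was 25.7 CPM (Cd55, KO replicate 1). The 6 endothelial markers summed to 106 to 151 CPM in WT and 94.3 to 143 CPM in KO. Most of each sum was Tek, at 97.2 to 109 CPM and 77.8 to 98.1 CPM. The highest value of any other endothelial marker was 22.5 CPM (Pecam1, KO replicate 3). For the leukocyte list of 6 the sums were 7.90 to 17.3 CPM and 6.83 to 18.2 CPM, with Ptprc, Csf1r and Cd3e at 0 in some libraries, and for the mature fibre list of 6 they were 135 to 509 CPM and 151 to 371 CPM. In bulk RNA, fewer cells of a type and less RNA per cell cannot be told apart.

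Of the 29 genes, 28 passed the filter on low counts and 14 of these shared 1 library order, with WT replicate 1 and KO replicate 1 as the highest 2 of the 6 libraries. Promoters of 3 genes with that order are shown because they stand at the entry, the first step and the middle of the pathway: Dlat (acetyl transfer in pyruvate dehydrogenase), Cs (citrate synthase) and Fh1 (fumarase). The promoter of Suclg2, a succinyl-CoA ligase subunit with nearly the same level in all 6 libraries, stands beside them. Each is the 250 bases upstream of the RefSeq start on GRCm38.p6, read 5′ to 3′ on the gene's strand. They lie at chr9:50659781-50660030 (minus strand), chr10:128337477-128337726 (plus strand), chr1:175625636-175625885 (minus strand) and chr6:95718847-95719096 (minus strand), and none of these windows holds an annotated exon base. Capitals mark matches, on either strand, to 4 motifs: the NRF1 core TGCGCA, the ETS core CCGGAA, the CCAAT box CCAAT and the GC box GGGCGG.
Dlat: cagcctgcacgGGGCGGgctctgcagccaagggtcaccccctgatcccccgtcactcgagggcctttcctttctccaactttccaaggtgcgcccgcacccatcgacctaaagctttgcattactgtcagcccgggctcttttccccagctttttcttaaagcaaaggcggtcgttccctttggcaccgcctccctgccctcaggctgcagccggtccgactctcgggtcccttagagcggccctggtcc
Cs: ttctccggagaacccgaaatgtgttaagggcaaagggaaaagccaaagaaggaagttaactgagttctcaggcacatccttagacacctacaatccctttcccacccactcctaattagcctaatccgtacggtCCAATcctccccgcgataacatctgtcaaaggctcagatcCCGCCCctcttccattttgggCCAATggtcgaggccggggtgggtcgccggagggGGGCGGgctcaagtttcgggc
Fh1: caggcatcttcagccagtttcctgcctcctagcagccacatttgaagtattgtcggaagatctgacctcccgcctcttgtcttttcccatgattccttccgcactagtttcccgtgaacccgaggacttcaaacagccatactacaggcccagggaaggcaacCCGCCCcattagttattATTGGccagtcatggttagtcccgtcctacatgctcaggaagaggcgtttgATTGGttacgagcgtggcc
Suclg2: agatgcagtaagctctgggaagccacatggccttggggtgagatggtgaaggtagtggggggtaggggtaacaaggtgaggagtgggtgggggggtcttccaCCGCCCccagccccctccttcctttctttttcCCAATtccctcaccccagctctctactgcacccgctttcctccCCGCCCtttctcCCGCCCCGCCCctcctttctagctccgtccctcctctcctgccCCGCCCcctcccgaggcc

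The RefSeq table held 33 windows for 26 of the 29 genes, with more than 1 window for Ogdh, Idh1 and Pcx, and did not hold Pdp1, Idh3a and Me2. A gene is counted where any of its windows holds the motif, and so are all 27025 genes of the table. A GC box was found for 18 of the 26 genes, against 35.4% of all genes, and a CCAAT box for 13, against 37.5%. Per window, these were 20 and 16 of 33, against 32.7% and 33.8% of all 32851 windows. The background was not matched for GC content. All windows averaged 53.2% GC, and most windows of the set lay above that, from 43.6% (Dld) to 82% (Glud1). Whether the GC box share differs from that of windows of like GC content was not tested. An NRF1 core was found for 3 genes (Ogdh, Glud1 and Got2) and an ETS core for 3 (Dld, Idh3g and Glud1), against 7.36% and 13.6% of all genes. A GC box stood in the promoters of 9 of the 13 genes with the shared library order and 9 of the 13 others, and a CCAAT box in those of 5 and 8. A match is a description of the letters and not a site of binding. Another pair of searches, for the estrogen-related receptor site AAGGTCA and the E-box CACGTG, matched 1 gene (Got1) and 3 genes (Pdp2, Pcx and Ogdh), against 4.70% and 6.86% of all genes.

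The 29 genes spanned a wide range of levels. Levels between genes are compared as CPM per kilobase of exon. Mdh2, the mitochondrial malate dehydrogenase, was the most abundant at 150 ± 11.7 CPM per kilobase in WT and 148 ± 21.3 in KO (SD, n = 3 each). Idh2, the NADP-dependent mitochondrial isocitrate dehydrogenase, followed at 136 ± 43.3 in WT and 146 ± 37.2 in KO, so that these 2 genes did not differ beyond their spread. Next came Mdh1, the cytosolic malate dehydrogenase of the malate-aspartate shuttle, with 100 ± 10.4 and 97.9 ± 13.9, and Idh3g, a regulatory subunit of the NAD-dependent isocitrate dehydrogenase, with 84.4 ± 5.31 and 78.5 ± 4.14. Sucla2 (68.3 ± 3.79 in WT), Idh3b (63.1 ± 1.35), Pdhb (63.5 ± 9.86), Glud1 (56.1 ± 13.0), Pdha1 (55.8 ± 6.54) and Dld (51.8 ± 3.71) came next. Sucla2 lay above Idh3b in every library, and the other neighbours overlapped in WT. At the low end stood Me2 (4.04 ± 0.542 in WT), Pcx (2.24 ± 1.21), Me3 (1.55 ± 1.08) and Ogdhl (0.0355 ± 0.00858).

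**Figure D1:**
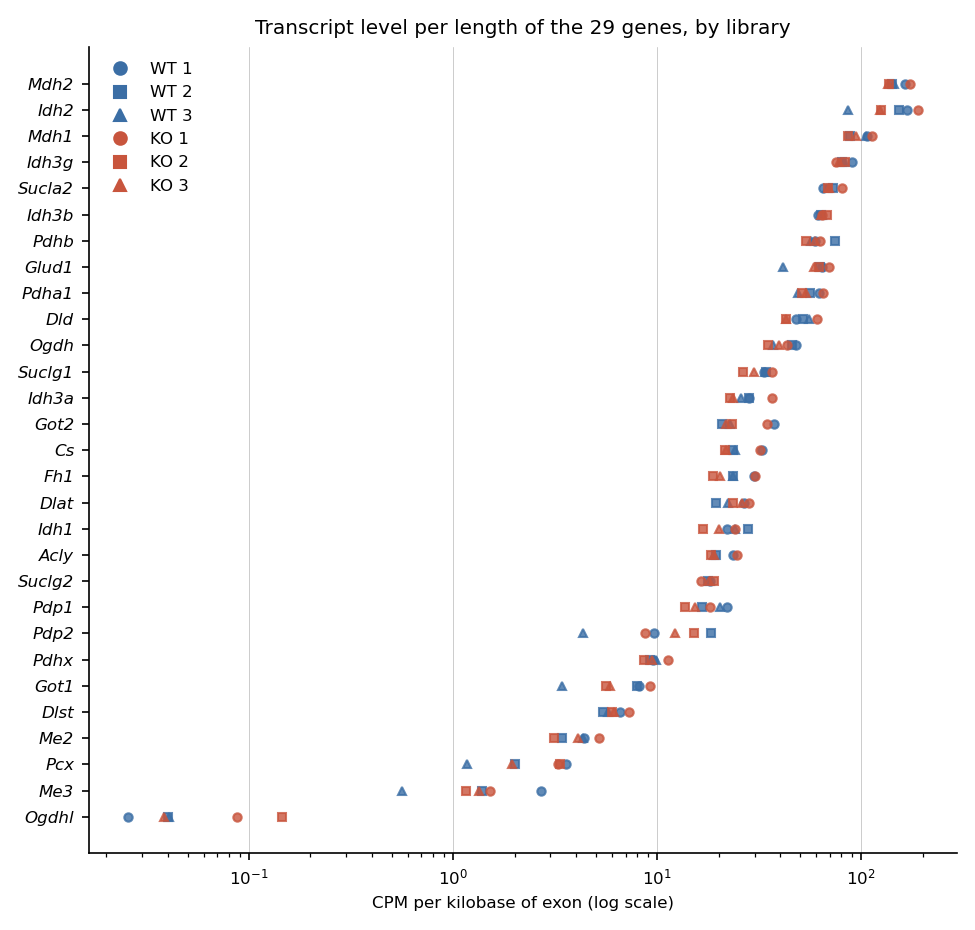
Transcript level of the 29 genes in CPM per kilobase of exon (log axis), 1 symbol per library, ordered by their mean. Mdh2 and Idh2 lie at the top near 150 and Ogdhl at the bottom under 0.2, and the 6 libraries of most genes lie close together.

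In KO against WT, no gene of the set passed the test. edgeR's quasi-likelihood test called 0 of the 28 tested genes at an adjusted p under 0.05, and the smallest adjusted p was 0.999976. The same test called 0 of all 18832 genes tested, a background of 0%, and DESeq2, which called 0.106% of all genes, called 0 of the 28 as well. At an unadjusted p under 0.05 stood 0 of the 28, against 2.09% of all genes. Groups that do not overlap were found for 0 of the 28, against 6.55% of all genes. Fold changes were 14 positive and 14 negative, with a median log2 fold change of -0.0039 (all genes, 0.0062) and a range from -0.33 to 0.34.

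The data bounded these differences for most of the genes. The 95% interval of the fold change lay within 2-fold in either direction for 25 of the 28 genes, the exceptions being Pdp2, Pcx and Me3, and within 1.5-fold for 16. Among the 8850 genes in the same range of mean CPM (12.1 to 531), 84.1% lay within 2-fold and 40.5% within 1.5-fold. The median standard error of the log2 fold change was 0.17 in the set and 0.21 in that range. Leaving out the library labelled WT replicate 2 gave 14 positive and 15 negative fold changes (Ogdhl then passed the filter) with a median of -0.03. No gene was called then either. The balance of signs moved with single libraries in both directions. Without KO replicate 1, 20 of 28 were negative with a median of -0.15 (all genes, -0.0094), and without WT replicate 3, 20 of 29 were negative with a median of -0.05 (all genes, 0.0077). Without WT replicate 1, 20 of 29 were positive with a median of 0.06 (all genes, 0.01).

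**Figure D2:**
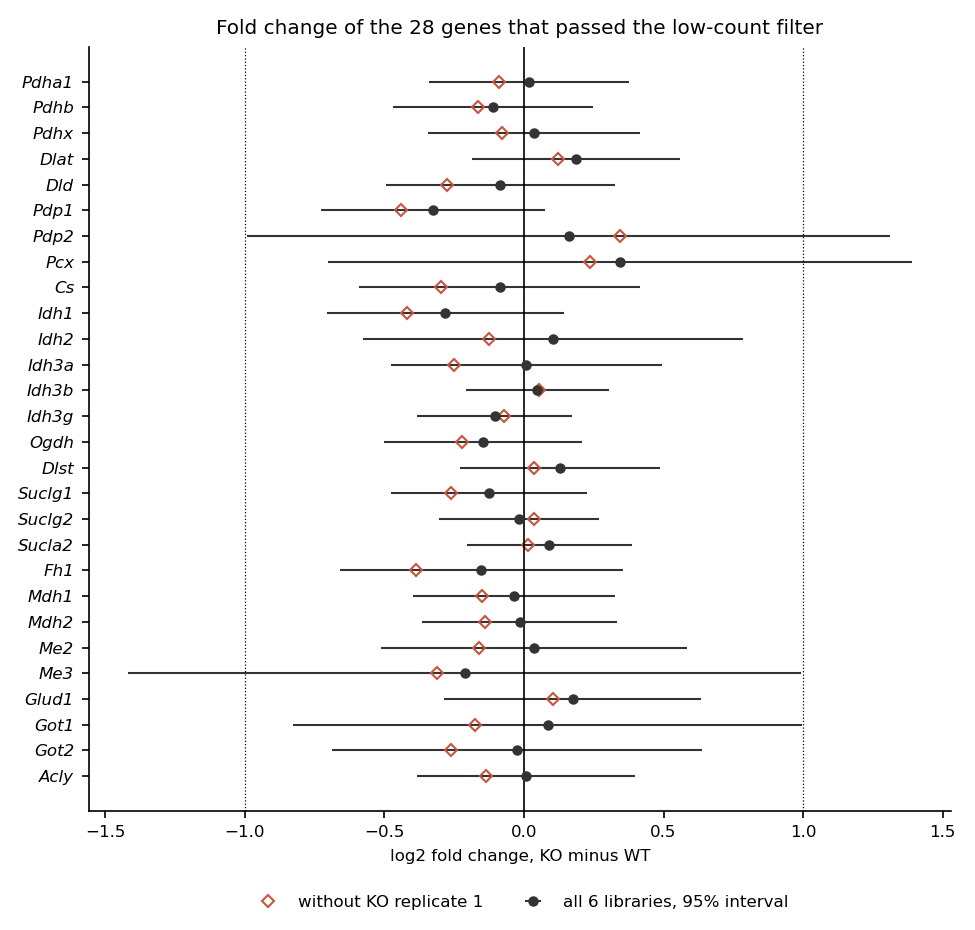
log2 fold change, KO minus WT, of the 28 tested genes with its 95% interval from edgeR (filled points) and the estimate without KO replicate 1 (open diamonds); dotted lines mark 2-fold. All 28 intervals cross 0, those of Pdp2, Pcx and Me3 cross a dotted line, and most diamonds lie left of their points.

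The pyruvate dehydrogenase complex has 5 genes here: Pdha1 and Pdhb for the decarboxylase E1, Dlat for the acetyltransferase E2, Dld for the dihydrolipoamide dehydrogenase E3, and Pdhx for the protein that binds E3 to the core. Their fold changes ran from -0.11 to 0.19. Dlat lies on chromosome 9 from 50634633 to 50659780 (minus strand, GRCm38). It stood at 130, 94.7 and 109 CPM in WT replicates 1, 2 and 3 and at 138, 115 and 128 CPM in KO replicates 1, 2 and 3. The 3 KO libraries lay in the upper part of the WT range or above it, and the groups overlapped. Its log2 fold change came to 0.19 (SE 0.16, 95% interval -0.19 to 0.56, unadjusted p = 0.279, edgeR). The E1 subunits stood at 209 ± 24.4 CPM in WT and 211 ± 27.0 in KO for Pdha1 and at 245 ± 38.1 and 227 ± 18.5 for Pdhb (SD, n = 3 each). Pdhb was highest in the library labelled WT replicate 2, at 289 CPM, where no other subunit peaked. Dld, which also serves the oxoglutarate and branched-chain complexes, had 191 ± 13.7 CPM in WT and 180 ± 38.4 in KO: KO replicate 1 was the highest of the 6 at 224 CPM and KO replicates 2 and 3 the lowest at 157 and 158 CPM. Pdhx was the least abundant, with 37.4 ± 1.32 and 38.4 ± 5.31 CPM. Of the exon bases of Pdha1, 16.1% overlap Map3k15 on the opposite strand, and how the counting treated strand is not given in the sources used here. Pdha1, like Idh3g, lies on the X chromosome.

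Pdp1 and Pdp2 encode the catalytic subunits of the phosphatases that switch the complex back on. Pdp1 (chromosome 4, 11958184 to 11966452, minus strand) had 99.2, 75.2 and 91.9 CPM in the WT libraries and 81.7, 61.5 and 69.3 CPM in the KO libraries. KO replicates 2 and 3 were the lowest 2 libraries, and KO replicate 1 lay above the library labelled WT replicate 2. Its log2 fold change of -0.33 (SE 0.17, 95% interval -0.73 to 0.08) had the smallest unadjusted p of the set, 0.097 in edgeR, with an adjusted p of 0.999976. Leaving out 1 library moved it from -0.24 without WT replicate 1 (unadjusted p = 0.251, edgeR) to -0.44 without KO replicate 1 (unadjusted p = 0.0442, edgeR). It was -0.43 when the library labelled WT replicate 2 was dropped (unadjusted p = 0.0496, edgeR), -0.25 without KO replicate 2, -0.30 without WT replicate 3 and -0.31 without KO replicate 3, and none of these passed after adjustment. Pdp2 (chromosome 8, 104591451 to 104599026, plus strand) spread far more, with 54.8, 104 and 24.6 CPM in the WT libraries and 49.7, 86.0 and 69.5 CPM in the KO libraries. The highest and the lowest of the 6 libraries were both WT, and the fit gave a log2 fold change of 0.16 (SE 0.49, 95% interval -0.99 to 1.31). Without the library labelled WT replicate 2 it was 0.78, and without WT replicate 3 it was -0.22.

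The kinases Pdk1 to Pdk4, which oppose these phosphatases, were taken from a list of 55 partner genes of the pathway. Pdk4, the kinase induced by fasting and fatty acids, stood at 41.8, 110 and 149 CPM in the WT libraries and 36.2, 99.7 and 108 CPM in the KO libraries. WT replicate 1 and KO replicate 1 were the lowest 2 libraries, the reverse of the order of Dlat and Cs. Its log2 fold change was -0.30 (SE 0.54). Pdk2 was even, at 75.6 ± 9.37 CPM in WT and 71.0 ± 8.00 in KO. Pdk1, a target of hypoxia signalling, had 28.7 ± 10.3 and 25.6 ± 12.4 CPM, and the X-linked Pdk3 had 9.01 ± 3.82 and 10.0 ± 4.84 CPM (SD, n = 3 each). No kinase had groups that stood apart.

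**Figure D3:**
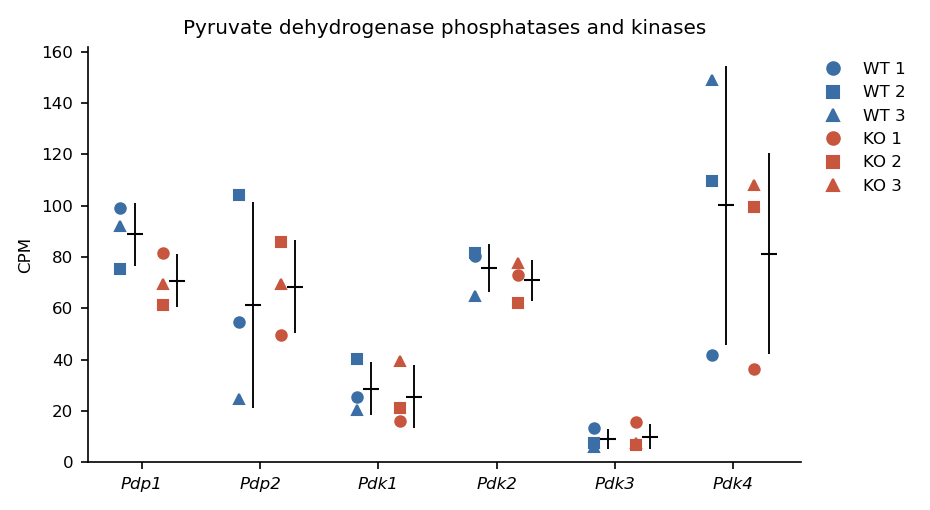
CPM of the 2 phosphatases and 4 kinases of pyruvate dehydrogenase by library (blue, WT; red, KO), with the group mean (bar) and SD (line) beside the points. The groups overlap for each gene, and WT 1 and KO 1 are the lowest 2 libraries for Pdk4.

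Pyruvate carboxylase, encoded by Pcx, makes oxaloacetate from pyruvate and is the main anaplerotic entry. Pcx (chromosome 19, 4510472 to 4621752, plus strand) had 16.9, 9.52 and 5.59 CPM in the WT libraries and 15.5, 15.9 and 9.27 CPM in the KO libraries. Its highest and its lowest libraries were WT replicates 1 and 3. The log2 fold change of 0.34 was the largest of the 28 (SE 0.44, 95% interval -0.70 to 1.39, unadjusted p = 0.462, edgeR), and it ranged from 0.04 without WT replicate 3 to 0.84 without WT replicate 1.

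Citrate synthase condenses acetyl-CoA with oxaloacetate at the head of the cycle. Cs (chromosome 10, 128337734 to 128362479, plus strand) had 188, 136 and 138 CPM in the WT libraries and 184, 125 and 126 CPM in the KO libraries. Replicate 1 of each group stood well above the other 4 libraries, which lay between 125 and 138 CPM. The log2 fold change was -0.09 (SE 0.21), and over the 13 alternatives it ran from -0.30 (without KO replicate 1) to 0.08, so that its sign was not fixed.

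Isocitrate dehydrogenase is encoded by 5 genes. Idh3a, Idh3b and Idh3g form the NAD-dependent enzyme of the cycle, Idh2 the NADP-dependent enzyme of the matrix and Idh1 its cytosolic counterpart. Idh1 (chromosome 1, 65158616 to 65186500, minus strand) had 61.1, 77.0 and 66.7 CPM in the WT libraries and 66.3, 46.4 and 55.7 CPM in the KO libraries. KO replicates 2 and 3 were the lowest 2 libraries, and KO replicate 1 lay between the WT values. For Idh1 the fit gave a log2 fold change of -0.28 (SE 0.18, 95% interval -0.71 to 0.14, unadjusted p = 0.16, edgeR), and it was negative under all 13 alternatives, from -0.42 to -0.18. Idh2 (chromosome 7, 80094846 to 80115392, minus strand) had 435, 394 and 224 CPM in the WT libraries and 488, 324 and 320 CPM in the KO libraries. WT replicate 3 was the lowest, and the log2 fold change was 0.10 (SE 0.29).

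The 3 subunits of the NAD-dependent enzyme did not vary alike. Idh3b was nearly constant at 211, 217 and 220 CPM in the WT libraries and 221, 231 and 217 CPM in the KO libraries. Idh3a, the catalytic subunit, had 142, 143 and 131 CPM in the WT libraries and 185, 115 and 119 CPM in the KO libraries, with KO replicate 1 far above the other libraries and KO replicates 2 and 3 below them. Idh3g had 244, 218 and 221 CPM in the WT libraries and 202, 224 and 210 CPM in the KO libraries, with KO replicate 1 as the lowest library, where Idh3a was highest. The log2 fold changes were 0.05 (SE 0.11) for Idh3b, 0.01 (SE 0.20) for Idh3a and -0.11 (SE 0.12) for Idh3g.

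The oxoglutarate dehydrogenase complex uses Ogdh as E1, Dlst as succinyltransferase E2 and the shared Dld. Ogdh had 237 ± 31.0 CPM in WT and 214 ± 22.3 in KO, with a log2 fold change of -0.15 (SE 0.15). Dlst had 56.6 ± 5.60 and 61.9 ± 6.78 CPM, with 0.13 (SE 0.15). Ogdhl, a paralog of Ogdh known from brain and liver, had only 6, 8 and 9 reads in WT and 18, 25 and 9 reads in KO, or 0.106, 0.167 and 0.168 CPM and 0.361, 0.603 and 0.159 CPM. It was detected in all 6 libraries and was the only gene of the set that did not pass the filter on low counts. KO replicate 3 lay inside the WT range. Without the filter its log2 fold change was 1.30, and without the library labelled WT replicate 2, where it passed the filter, it was 1.43 (SE 1.12, unadjusted p = 0.25, edgeR).

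Succinyl-CoA ligase pairs the alpha subunit Suclg1 with either the GTP-specific beta subunit Suclg2 or the ATP-specific Sucla2. Suclg2 was among the steadiest genes, with 83.6, 81.6 and 84.3 CPM in the WT libraries and 76.2, 87.6 and 82.9 CPM in the KO libraries (log2 fold change -0.02, SE 0.12). Sucla2 had 273 ± 15.1 CPM in WT and 290 ± 26.0 in KO (0.09, SE 0.12). Suclg1 was even in WT, at 155 ± 1.73 CPM, and spread in KO, at 142 ± 23.9 CPM, where replicate 1 was the highest of all libraries and replicates 2 and 3 the lowest (-0.13, SE 0.15). Per kilobase of exon, Sucla2 exceeded Suclg2 by 3.58 to 4.87 times in the 6 libraries.

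Fumarase, encoded by Fh1, hydrates fumarate to malate. Fh1 (chromosome 1, 175600374 to 175625635, minus strand) had 101, 80.0 and 79.9 CPM in the WT libraries and 102, 63.8 and 69.3 CPM in the KO libraries. Replicate 1 was the highest of each group, at almost equal levels, and KO replicates 2 and 3 were the lowest 2 libraries. With all libraries its log2 fold change came to -0.15 (SE 0.21, 95% interval -0.66 to 0.35), and leaving out 1 library moved it from -0.39 without KO replicate 1 to -0.03 without WT replicate 1. Mdh2 (chromosome 5, 135778480 to 135790398, plus strand), which closes the cycle, had 581, 504 and 516 CPM in the WT libraries and 616, 489 and 479 CPM in the KO libraries, and Mdh1 (chromosome 11, 21556787 to 21572367, minus strand) had 274, 226 and 272 CPM and 290, 220 and 243 CPM. Their log2 fold changes were -0.02 (SE 0.15) and -0.03 (SE 0.15).

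The malic enzymes Me2 and Me3 make pyruvate from malate in the matrix. Me2 had 29.3 ± 3.93 CPM in WT and 30.0 ± 7.57 in KO. Me3 (chromosome 7, 89632392 to 89854359, plus strand) had 39.6, 20.2 and 8.23 CPM in the WT libraries and 22.2, 16.9 and 19.6 CPM in the KO libraries. The 3 KO libraries were close together, and WT replicates 1 and 3 were the extremes of the 6. Its log2 fold change of -0.21 had the largest error of the set (SE 0.51, 95% interval -1.42 to 0.99). It was 0.46 without WT replicate 1 and -0.61 without WT replicate 3.

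Glutamate feeds the cycle through Glud1, glutamate dehydrogenase, and through the aspartate aminotransferases Got1 (cytosol) and Got2 (matrix) of the malate-aspartate shuttle. Glud1 (chromosome 14, 34310727 to 34345265, plus strand) had 271, 264 and 173 CPM in the WT libraries and 292, 261 and 246 CPM in the KO libraries. WT replicate 3 was the lowest and the other 5 libraries lay close together. Its log2 fold change came to 0.17 (SE 0.19, 95% interval -0.29 to 0.63), and -0.0070 without WT replicate 3. Got2 had 180, 100 and 110 CPM in the WT libraries and 167, 113 and 105 CPM in the KO libraries, again with replicate 1 of each group far above the rest (-0.03, SE 0.28). Got1 had 16.5 ± 6.81 CPM in WT and 17.5 ± 5.07 in KO (0.09, SE 0.39), and its lowest library was WT replicate 3 at 8.66 CPM. Of the exon bases of Got2, 9% overlap another annotated gene. Acly, ATP citrate lyase, which exports cycle carbon as cytosolic acetyl-CoA, had 109 ± 13.0 and 109 ± 18 CPM (0.01, SE 0.16).

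A shared order of libraries was found in part of the set and crossed the genotypes. The highest value of the 6 was in KO replicate 1 for 16 of the 28 genes (57.1%), against 18% of all genes and 23.2% of the genes in the same range of mean CPM. WT replicate 1 and KO replicate 1 were the highest 2 for 14 genes (50.0%), against 14.2% and 21.5%: Pdha1, Dlat, Cs, Idh2, Dlst, Fh1, Mdh1, Mdh2, Me2, Me3, Glud1, Got1, Got2 and Acly. They were the lowest 2 for 0 of the 28, against 12.4% of all genes and 13.2% of those in the same range. KO replicate 1 lay above both other KO libraries for 23 genes (82.1%), against 36.0% of all genes and 45.8% of those in the same range. KO replicates 2 and 3 were the lowest 2 for 8 genes (28.6%), against 8.76% of all genes and 11.5% of those in the same range: Dld, Pdp1, Cs, Idh1, Idh3a, Suclg1, Fh1 and Mdh2. These shares are descriptions without a test, since genes of 1 pathway are not independent.

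The same order stood in the totals. Summed over the 29 genes, the libraries had 4699, 4365 and 3944 CPM in the WT libraries and 4936, 3963 and 4026 CPM in the KO libraries. The median log2 deviation of the 28 genes from their own means was 0.13, -0.01 and -0.08 in WT replicates 1, 2 and 3 and 0.22, -0.16 and -0.06 in KO replicates 1, 2 and 3. KO replicate 1 stood above the gene's own mean for 25 of the 28, WT replicate 1 for 21, and KO replicates 2 and 3 for 6 and 5. WT replicate 3 was the lowest library for 7 genes: Pdha1, Pdp2, Pcx, Idh2, Me3, Glud1 and Got1. That share (25%) was near the 18.7% of all genes and the 20.2% of genes in the same range of mean CPM. Not all genes had this order: WT replicate 1 and KO replicate 1 were the highest 2 libraries for 14 of the 28. KO replicate 1 lay under the gene's own mean for Idh3g, Suclg2 and Pdp2. It lay close above the mean for Idh3b (log2 deviation 0.01), Pdhb (0.05) and Pdp1 (0.05).

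**Figure D4:**
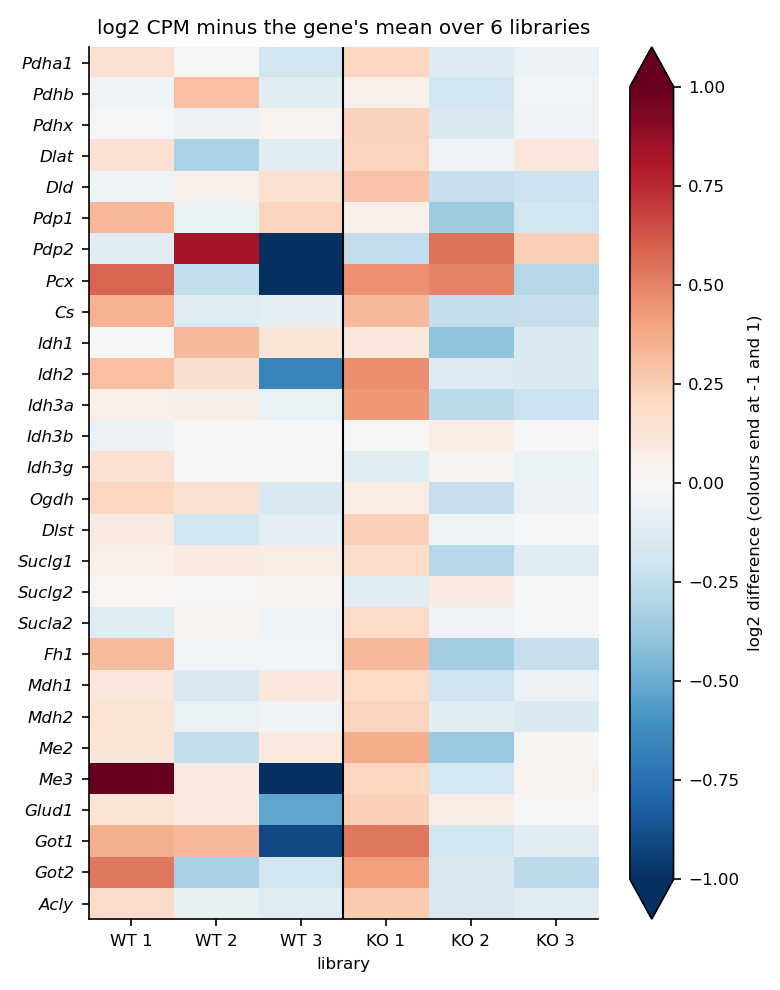
log2 CPM of each of the 28 genes in each library minus the gene's mean over the 6 libraries (red, above the mean; blue, below; colours end at -1 and 1). The columns of WT 1 and KO 1 are red for most genes, and those of KO 2 and KO 3 blue.

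Other values differed between these libraries, some of them in the same order. Reads that fell in no annotated feature made up 11.2%, 16.3% and 14.6% of the reads of WT replicates 1, 2 and 3 and 11.6%, 15.5% and 17.0% of those of KO replicates 1, 2 and 3, lowest in the 2 libraries where the set was highest. With that share as a term in the fit, 16 of the 28 fold changes were positive, the median was 0.03, the median SE was 0.13 and no gene was called. The 6 cycling markers summed to 165, 10.7 and 172 CPM in the WT libraries and 372, 21 and 12.7 CPM in the KO libraries, so WT replicate 3 shared their level but not that of the set. The 8 immediate early genes, which respond to tissue dissociation among other stimuli, summed to 14090, 26105 and 4876 CPM in the WT libraries and 11256, 32991 and 29535 CPM in the KO libraries. The 3 erythroid markers, all globin genes, summed to 384, 91.8 and 185 CPM in WT replicates 1, 2 and 3 and to 241, 30 and 197 CPM in KO replicates 1, 2 and 3, highest in the same 2 libraries as the set. None of these cycling and immediate early markers was at 0 in any library. At an unadjusted p under 0.05 in edgeR stood 0 of the 6 and 0 of the 8, against 2.09% of all genes. The SEs of their log2 fold changes were 1.05 to 1.68 and 0.55 to 0.997, so only large differences could reach that threshold. That comparison of KO with WT does not address the library order. The Y-linked gene Ddx3y stood at 0.0354 and 0.141 CPM in WT replicate 1 and KO replicate 1 and at 226, 23.3, 22.9 and 90.2 CPM in the library labelled WT replicate 2, WT replicate 3, KO replicate 2 and KO replicate 3. Xist, expressed from the inactive X of female cells, did not follow the order: it stood at 355, 0.0209 and 508 CPM in WT replicates 1, 2 and 3 and at 401, 393 and 244 CPM in KO replicates 1, 2 and 3. WT replicate 3 and KO replicates 2 and 3 thus held both Xist and Ddx3y. The part of cycling, of immediate early genes, of globin RNA and of the sex of the animals in the library order was not tested.

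Ratios of paired enzymes within a library do not depend on how libraries are scaled. For 8 pairs, the log2 ratio of CPM was compared between groups by an exact two-sided permutation test, which cannot go below 0.1 with 3 against 3 libraries. Idh2 exceeded Idh1 by 7.11, 5.12 and 3.36 times in WT and 7.36, 6.98 and 5.74 times in KO, in CPM. The KO libraries lay in the upper part of the range, with a log2 difference of 0.42 (exact p = 0.3, adjusted p = 1 over the 8 pairs), which moved from 0.14 without WT replicate 3 to 0.68 without WT replicate 1. The Pdp2/Pdp1 ratio stood at 0.552, 1.39 and 0.268 in the WT libraries and 0.608, 1.40 and 1.00 in the KO libraries (log2 difference 0.69, exact p = 0.4), and the difference moved from 0.12 without WT replicate 3 to 1.30 without the library labelled WT replicate 2. Idh3b/Idh3a was steady in WT, at 1.48, 1.52 and 1.67, and ran from 1.19 to 2.02 in KO (0.07, exact p = 0.9). Mdh2/Mdh1 stayed between 1.90 and 2.23 in all 6 libraries. The groups overlapped for all 8 pairs, and the adjusted p was 1 for each. For Ogdhl/Ogdh (1.32, exact p = 0.2) the ratio rests on 6 to 25 Ogdhl reads a library. The remaining differences were -0.16 for Got2/Got1, 0.11 for Sucla2/Suclg2 and 0.04 for Me3/Me2.

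**Figure D5:**
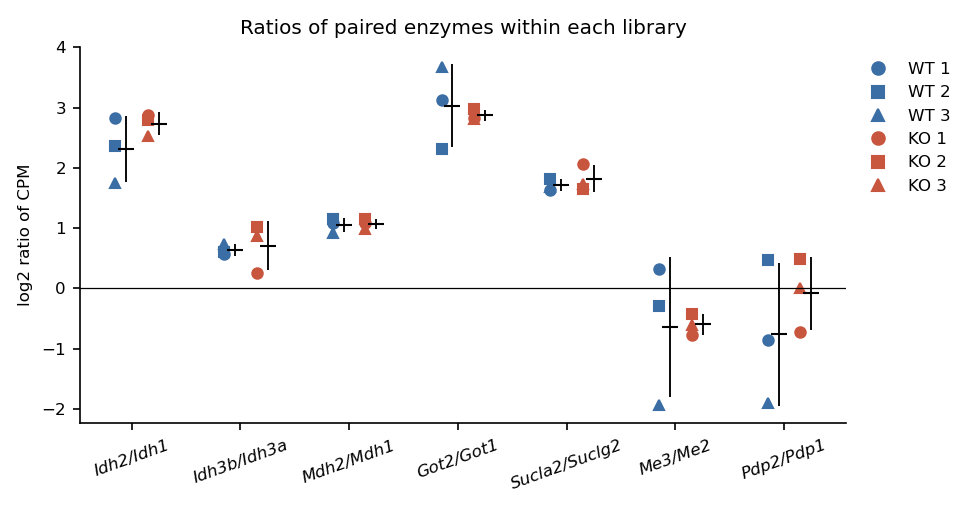
log2 ratio of the CPM of 2 related enzymes within each library for 7 pairs (blue, WT; red, KO), with group mean (bar) and SD (line); Ogdhl/Ogdh, near -10, is not drawn. Points of WT and KO overlap for every pair, and Got2/Got1, Me3/Me2 and Pdp2/Pdp1 spread most among the WT libraries.

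The partner genes cover the steps that the 29 genes leave out, such as succinate dehydrogenase, lipoylation, pyruvate import and glutamine synthesis. Of the 55, 53 passed the filter, with 27 positive and 26 negative fold changes, a median of 0.0053 and 0 called by edgeR. At an unadjusted p under 0.05 stood 1 of the 53 (edgeR), against 2.09% of all genes, and for 3 the groups did not overlap, against 6.55% of all genes. Both shares are near or under the background, so the next 3 genes are named as values only. Lipt1, a lipoyltransferase that attaches the lipoyl cofactor used by Dlat and Dlst, had 7.44, 8.45 and 9.29 CPM in the WT libraries and 5.06, 4.89 and 3.91 CPM in the KO libraries. All 3 KO libraries lay below all 3 WT libraries, with a log2 fold change of -0.86 (SE 0.29, unadjusted p = 0.0198, adjusted p = 0.999976, edgeR). Mcee, the epimerase of the propionyl-CoA route into succinyl-CoA, stood at 37.3 ± 2.52 CPM in WT and 31.3 ± 0.210 in KO (-0.25, SE 0.14), and all 3 KO libraries were lower. Pck2, the mitochondrial phosphoenolpyruvate carboxykinase that draws oxaloacetate out of the cycle, stood at 22.0 ± 1.78 and 26.5 ± 2.14 CPM (0.27, SE 0.17), and all 3 KO libraries were higher.

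Sdha, the flavoprotein of succinate dehydrogenase, had 483 ± 19.2 CPM in WT and 485 ± 26.9 in KO (SD, n = 3 each). It had WT replicate 1 and KO replicate 1 as its highest 2 libraries, an order found for 13 of the 53 partner genes (24.5%). The pyruvate carrier subunits Mpc1 (92.5 ± 1.03 and 95.2 ± 12.7 CPM) and Mpc2 (95.6 ± 11.7 and 91.3 ± 15.6 CPM) shared the order of Sdha. Glul, glutamine synthetase, ran the other way: it had 271, 727 and 1139 CPM in the WT libraries and 423, 778 and 971 CPM in the KO libraries, lowest in replicate 1 of each group. Pdk4 was also among the 8 partner genes with WT replicate 1 and KO replicate 1 as the lowest 2.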

How the data were processed

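The authors deposited raw counts of reads per gene for each library. HTSeq 0.6.1p2, STAR 2.6.0c, Trim Galore 0.5.0 and cutadapt 2.5 are named, with DESeq2 and edgeR and the build GRCm38, per the submitters' processing notes. Annotation release: not given in the sources used here, nor is the strand setting. The 5 summary rows were left out: 11.2% to 17.0% of reads had no feature, 1.21% to 1.42% were ambiguous and 14.8% to 24.6% aligned more than once. Such reads are not counted, so genes with near-identical copies are uncertain.

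Symbols, positions and exon lengths came from GENCODE M21 (GRCm38), which matched 49320 of the 49652 rows. Fits used R 4.3.3, edgeR 4.0.16, limma 3.58.1 and DESeq2 1.42.0. KO was compared with WT in edgeR's quasi-likelihood test (robust, TMM scaling, filterByExpr, no covariate) on 18832 genes, with Benjamini-Hochberg adjustment over all of them, a threshold of 0.05 and a prior count of 0.125. The scripts were tested on simulated counts. Alternatives were other scalings, no filter, DESeq2, limma voom, a replicate block, the no-feature share as covariate and each library left out.

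The members, the partner list and the marker lists were chosen with earlier results of these data known. Values per library are given for members at an unadjusted p under 0.05 or with groups apart, the 4 largest fold changes in each direction, the 4 most abundant per length and any filtered member. Partner genes are named by the same 2 criteria, beside 8 fixed ones. A further 2 are not reported here, and all other partner genes enter only as counts. Cs, Got2, Idh3a, Idh3b and Suclg2 are also given per library, chosen after their values were seen. Promoters are from RefSeq (GRCm38.p6).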

Additional observations from a re-analysis of the deposited data

How the results depend on the processing

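No member was called under any of the 13 alternatives. Over all genes, DESeq2 called 20 where edgeR called 0. The number of members at an unadjusted p under 0.05 was 1 with the replicate block and 0 to 1 when a library was left out, and that member was Pdp1. The median log2 fold change of the members ran from -0.15 to 0.055 with a library left out. Of 24 named genes, Opa1 included, 11 kept their sign under every alternative, and 36 of 312 values changed sign.

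Deviations of same-numbered libraries from their group means had correlations of 0.245, 0.105 and -0.0721 for replicates 1, 2 and 3. The highest value for unlike numbers was 0.207, for WT replicate 2 with KO replicate 3. So few pairs cannot decide whether the numbers pair the samples. The replicate block gave 515 genes at an unadjusted p under 0.05 against 393 and called 0. The median SE of the members was 0.126 with the block and 0.167 without it. With the block Me3 changed sign to 0.038, and with limma voom to 0.051. With the no-feature covariate Mdh2 was at 0.016 and Glul at -0.11. Without the low-count filter Glul was at -0.0044 and Sdha at -0.020. Sdha was also at -0.00057 with RLE scaling and with DESeq2, and at -0.014 with upper-quartile scaling. The cause was not tested. With each library left out in turn, log2 fold changes ran from -0.0070 to 0.29 for Glud1, -0.22 to 0.78 for Pdp2, -0.61 to 0.46 for Me3, -0.14 to 0.051 for Mdh2, -0.14 to 0.29 for Idh2, -0.15 to 0.034 for Mdh1, -0.63 to 0.16 for Pdk1, -0.32 to 0.55 for Pdk3, -0.67 to 0.10 for Pdk4, -0.067 to 0.11 for Mpc1, -0.20 to 0.029 for Mpc2, -0.040 to 0.037 for Sdha and -0.36 to 0.54 for Glul. Differences in log2 ratio ran from -0.077 to 0.30 for Idh3b/Idh3a, -0.049 to 0.066 for Mdh2/Mdh1, -0.53 to 0.16 for Got2/Got1, -0.018 to 0.19 for Sucla2/Suclg2 and -0.61 to 0.52 for Me3/Me2. A ratio within a library is the same in raw counts and CPM by construction. Ogdhl had the lowest counts of the set, at 6 to 25 reads a library. The parts of depth and of the spread between libraries in the errors of the other members were not tested.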
